A study of Notamacropus eugenii with 7 samples.

Results

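The miR-200 family is a small group of miRNAs found in the epithelia of vertebrates. Its members were taken by name from the deposited table of tammar wallaby milk and serum miRNAs. They are miR-141, miR-200b, miR-200c and miR-429, which make up 4 of the 346 miRNAs named in the table and 4 of the 102 that were listed in at least 1 library. A row for miR-200a, the remaining relative, is empty in all 7 libraries, whereas the study's text names both arms of miR-200a among its miRNAs. The study also places an arm of miR-200a among its most abundant miRNAs, under late lactation (day 250). Sums, seed ratios and cluster ratios below therefore cover the 4 listed members, and the part of miR-200a is not known from the table. Small RNA was sequenced from skim milk at days 35 and 75 (phase 2A of lactation), days 120 and 175 (phase 2B) and day 250 (phase 3), and from blood serum of lactating mothers at days 120 and 175. All donors were lactating tammar wallabies bred at Deakin University, Geelong, and CSIRO, Canberra, under no experimental treatment. The study's methods do not say which site each pool came from. For milking, the females were anaesthetised and given oxytocin to let down the milk. Milk of several females was pooled at each time point before RNA isolation, so that each milk condition is 1 library of a pool, each serum condition is 1 library too, and there is no replicate error between animals. Fat and cells were spun out of the milk before RNA isolation. Milk RNA and serum RNA were isolated with different kits according to the study's methods, so that fluid and kit cannot be told apart. The day names used here are those of the sample labels. The written account of the work uses a slightly earlier day for the libraries called day 120 here and, outside its methods, for that called day 75.

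The deposited unit is the percent of all annotated miRNA reads of a library that one miRNA took, called its share below. Shares were rounded to 3 decimals, an entry of 0 is a low value, and empty entries are absent miRNAs. The table holds shares without read counts. The study gives total reads per library and the part aligned to miRNAs, and the latter was used in an alternative denominator only. No counting error was computed, and the printed precision is that of rounding, 0.0005 percentage points either way. The listed shares of a library summed to between 95.82% and 99.598%. A few miRNAs took most of each library, with miR-191 at 43.8% of day 120 milk and miR-10b at 69.2% of serum from the same day, and every other share moves with them. The blood cell markers miR-451 and miR-223 took 0.041% and 0.030% of serum at day 120 and 0.054% and 0.072% at day 175. In milk miR-223 was between 0 and 0.008%, and miR-451 was absent at day 35 and at most 0.045% later. Over the whole marker list, 6 of 8 blood cell miRNAs were listed, and they summed to between 0.095% and 0.147% in milk and to 0.164% and 0.306% in serum, with miR-486 and miR-155 unlisted in every library. Most of each milk sum was miR-16, which overlapped between the fluids at 0.082% to 0.145% of milk and 0.081% and 0.131% of serum.

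MiRNAs of the miR-200 family hold down the transcription factors ZEB1 and ZEB2, which repress E-cadherin, and so they are known for keeping cells in the epithelial state. In the mammary gland, milk is made by such an epithelium. A miRNA finds its targets mainly through its seed, bases 2 to 8 from its 5′ end. MiR-141 shares its seed with miR-200a, while miR-200b, miR-200c and miR-429 share another that differs from it by a single base. The genes are grouped differently in mammals. MiR-200b, miR-200a and miR-429 are transcribed from one cluster, and miR-200c and miR-141 from another. Each cluster therefore holds both seeds, and the shares can be compared between seed groups and between clusters.

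The study designed a PCR assay for miR-141, and its oligos hold sequence of this member. They are shown because the forward primer carries the seed that sets miR-141 apart from the other 3 members and the stem-loop primer matches the end of the miRNA. In the forward primer the capitals mark the seed of miR-141 in DNA letters, AACACTG, found at bases 8 to 14 of the 21. In the stem-loop primer of 50 bases the capitals mark the last 6 bases, which pair with the 3′ end of the miRNA, read as AGATGC on the miRNA itself. The study reports that PCR of miR-141 in milk of animals other than those sequenced correlated well with its sequencing. PCR measurements were not analysed here.
miR-141 forward primer: cgcgcctAACACTGtctggta
miR-141 stem-loop primer: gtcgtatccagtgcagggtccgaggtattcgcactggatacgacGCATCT

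MiR-141, the 1 listed member with the seed it shares with miR-200a, was the most abundant of the 4 in milk on 4 of the 5 days. In milk of days 35, 75, 120, 175 and 250, its shares were 0.344%, 1.74%, 0.684%, 4.96% and 4.17%. The serum shares of days 120 and 175 were 0.002% and 0.010%. The milk of days 175 and 250 was highest and that of day 35 lowest, and even this lowest value lay above both serum values. Among the listed miRNAs of each milk library miR-141 ranked 19, 9, 14, 8 and 7 in order of day, and in serum it ranked 60 and 44.

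MiR-429, which carries the seed of miR-200b and miR-200c, was the largest member in milk at day 35 and the second by share on the later days. Its milk shares were 0.398%, 0.231%, 0.5%, 1.38% and 0.205% in order of day, the highest at day 175. Serum held 0.007% and 0.014%, in both cases more than of miR-141. Its ranks in milk were 18, 19, 16, 15 and 24 in order of day. The lowest milk value, at day 250, lay above both serum values.

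MiR-200b was listed at 0 in milk at day 35. Its later milk shares were 0.138%, 0.096%, 0.124% and 0.067% in order of day, at ranks between 26 and 33. In both serum libraries it was listed at 0. The milk of day 35 was therefore not distinguishable from serum for this member, while each of the 4 later milk values was above both.

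MiR-200c was absent from milk at day 35. The milk of days 75 and 120 held 0.033% each, and that of days 175 and 250 held 0.039% and 0.046%, at ranks between 33 and 43. It was listed at 0 in both serum libraries. From day 75 its values in milk spanned the narrowest range of the 4 members. Being at 0 or absent at day 35 and above 0 in the other 4 milk libraries was shared by 13 of the 69 miRNAs that reached 0.005% in any library, or 18.8%, and these 13 include miR-200b and miR-200c. The day 35 library also listed the fewest miRNAs, 48 with 42 above 0, against 85 with 74 above 0 at day 75.

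**Figure D1:**
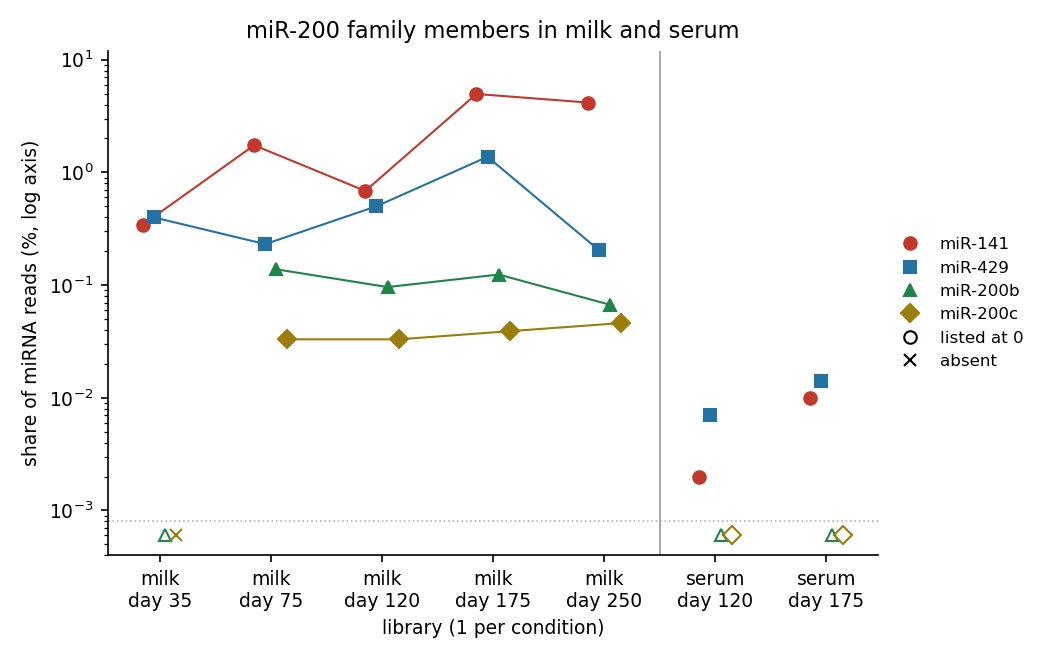
Share of miRNA reads (percent, log axis) of the 4 members in the 5 milk and 2 serum libraries, 1 library per condition; open symbols under the dotted line are entries listed at 0 and the cross is an absent entry, neither drawn to scale. MiR-141 and miR-429 lie above 0.2% in every milk library and at or below 0.014% in serum, and miR-200b and miR-200c have values in milk from day 75 alone.

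The listed members together, called the family sum here, took 0.742%, 2.14%, 1.31%, 6.50% and 4.48% of milk miRNA reads in order of day. Any share of miR-200a is missing from this sum. The sums in serum were 0.009% and 0.024%. MiR-141 made up 46.4%, 81.2%, 52.1%, 76.3% and 92.9% of the milk sum. MiR-429 made up 53.6%, 10.8%, 38.1%, 21.2% and 4.57% of it on the same days. MiR-200b and miR-200c together never reached 10% of the sum. MiR-141 was thus the smaller of these parts at day 35 and the larger on every later milk day. In serum miR-429 was the larger part, with 77.8% and 58.3% of the sum.

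**Figure D2:**
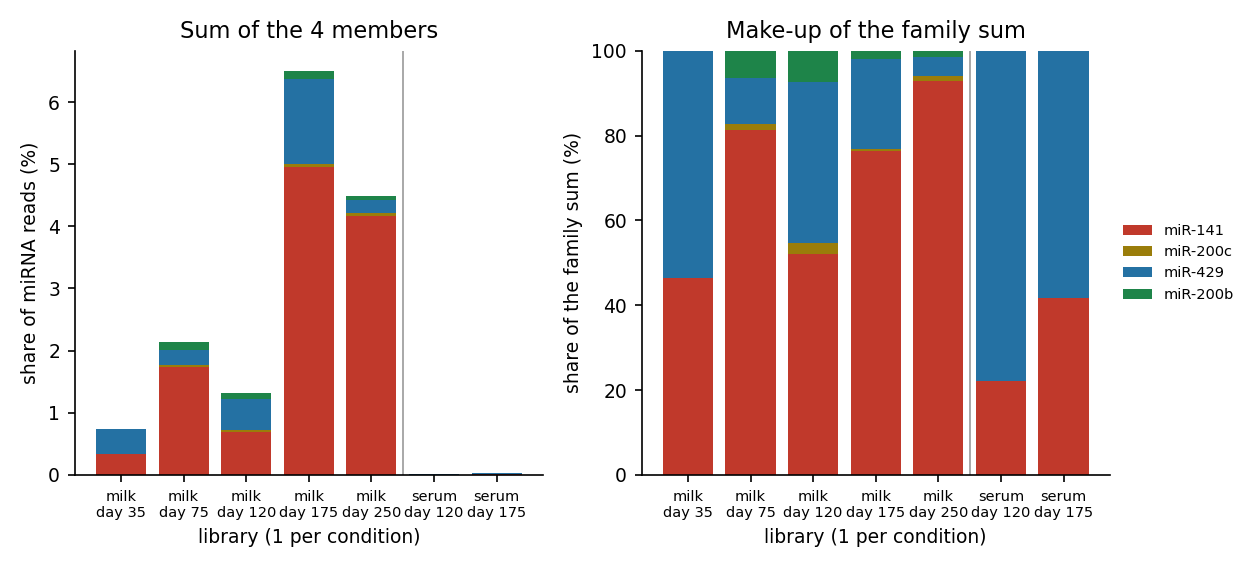
Left, the sum of the 4 members as percent of miRNA reads; right, the part of each member in that sum in percent, for 5 milk and 2 serum libraries with 1 library per condition. The milk sum is highest at day 175, at 6.50%, and miR-141 takes 92.9% of it at day 250, against 22.2% and 41.7% in serum.

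How the members changed from one milk day to the next was asked with 1 library per day, so that no test applies, and a change of at least 2-fold was counted. Beside each count stands the share of all miRNAs that changed as much, taken over those with at least 0.005% on one of the days and above 0 on both. From day 35 to day 75 miR-141 was 5.06-fold higher (5.05 to 5.07 within rounding), the fourth largest increase of 42 miRNAs, of which 16.7% were at least 2-fold higher. MiR-429 was 1.72-fold lower over the same interval. As shares of all analysed reads instead of miRNA reads, the log2 change of miR-141 went from 2.34 to 3.30, and miR-429 was not lower at day 75 (log2 change 0.18).

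From day 75 to day 120 the most abundant members differed in direction as shares of miRNA reads. MiR-141 was 2.55-fold lower (2.54 to 2.55 within rounding), as were 22% of 50 miRNAs by at least 2-fold, and miR-429 was 2.16-fold higher, as were 30%. MiR-200b was 1.44-fold lower and miR-200c was level. Relative to all analysed reads the 4 members were all lower at day 120, with log2 changes of -2.62 for miR-141 (against -1.35), -1.80 for miR-200b, -1.27 for miR-200c and -0.16 for miR-429. Without miR-191 in the denominator the log2 change of miR-141 was -0.99, just under 2-fold.

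Within phase 2B, from day 120 to day 175, miR-141 was 7.25-fold higher (7.25 to 7.26 within rounding) and miR-429 was 2.75-fold higher. At least 2-fold higher shares were found for 47.3% of 55 miRNAs in this interval, and the median miRNA was 1.61-fold higher. The log2 change of miR-141, 2.86, lay between 1.98 and 3.71 under the other scalings. That of miR-429, 1.46, fell below 2-fold at 0.77 without miR-191 in the denominator and at 0.58 as a centred log ratio. By size of increase miR-141 ranked 9 and miR-429 ranked 26 among the 55. MiR-200b and miR-200c were 1.29-fold and 1.18-fold higher, less than the median miRNA. Once miR-191 was dropped from the denominator, both were lower at day 175, with log2 changes of -0.32 and -0.44.

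From day 175 to day 250 miR-429 was 6.71-fold lower (6.69 to 6.73 within rounding). Its log2 change of -2.75 became -1.67 as a centred log ratio and -2.01 relative to all analysed reads, in both cases still beyond 2-fold. At least 2-fold lower shares were found for 46.4% of 56 miRNAs, the median miRNA standing at 0.560 of its day 175 share. MiR-200b was 1.85-fold lower, close to that median, and miR-141 was 1.19-fold lower. MiR-200c was 1.18-fold higher, as one of 35.7% of miRNAs that were higher at day 250. The small decrease of miR-141 did not hold on every scale, with a log2 change of 0.48 relative to all analysed reads and of 0.83 as a centred log ratio. That of miR-200b turned into a log2 change of 0.19 as a centred log ratio.

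Over the whole period, miR-141 was 12.1-fold higher in milk at day 250 than at day 35 (12.09 to 12.13 within rounding), the fourth largest increase of 41 miRNAs, of which 26.8% were at least 2-fold higher. MiR-429 was 1.94-fold lower, which turned into a log2 change of 0.31 relative to all analysed reads. Both had their highest milk share at day 175, as did 40.6% of the 64 miRNAs that reached 0.005% in any milk library. MiR-200b was highest at day 75, as were 18.8%, and miR-200c at day 250, as were 20.3%. The highest day of miR-141 was day 250 on the centred log ratio and relative to all analysed reads, and that of miR-200c was day 120 without miR-191 in the denominator. MiR-200b and miR-429 had the same highest day under these scalings.

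Ratios between members of a library do not depend on what the shares are divided by, and so they are free of the general shifts. The seed of miR-141 against the seed of the other 3 members stood at 0.864, 4.33, 1.09, 3.23 and 13.1 in milk in order of day, with rounding bounds of 0.861 to 0.867 for the first and of 13.04 to 13.16 for the last. It thus changed 15.2-fold within milk. In serum the ratio was 0.286 at day 120 (0.176 to 0.385) and 0.714 at day 175 (0.613 to 0.778). Both serum values lay below the lowest milk value, and each rests on shares of at most 0.014%.

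Among the listed members the ratio of the clusters followed that of the seeds, as miR-141 dominated its cluster sum and miR-429 the other. MiR-200a, with the seed of miR-141 but in the cluster of miR-429, would enter these ratios on opposite sides, and its share is not known. The sum of miR-141 and miR-200c over that of miR-200b and miR-429 was 0.864, 4.81, 1.20, 3.34 and 15.5 in milk in order of day. Members of the same cluster did not keep a fixed proportion. From day 75 on, the share of miR-141 was 52.8, 20.7, 127 and 90.6 times that of miR-200c, a span of 6.14-fold. The share of miR-429 was 1.67, 5.21, 11.1 and 3.06 times that of its neighbour miR-200b on these days, a span of 6.62-fold.

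Members with the same seed from different clusters were compared in the same way. MiR-200b over miR-200c was 4.18, 2.91, 3.18 and 1.46 from day 75 on, a span of 2.87-fold. MiR-429 over miR-200c spanned 7.91-fold, from 4.46 at day 250 to 35.3 at day 175. Of these pairs miR-200b and miR-200c kept the steadiest proportion. Reads of such closely related sequences could be assigned to one or the other by the counting, and the part of this in the ratios was not tested.

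**Figure D3:**
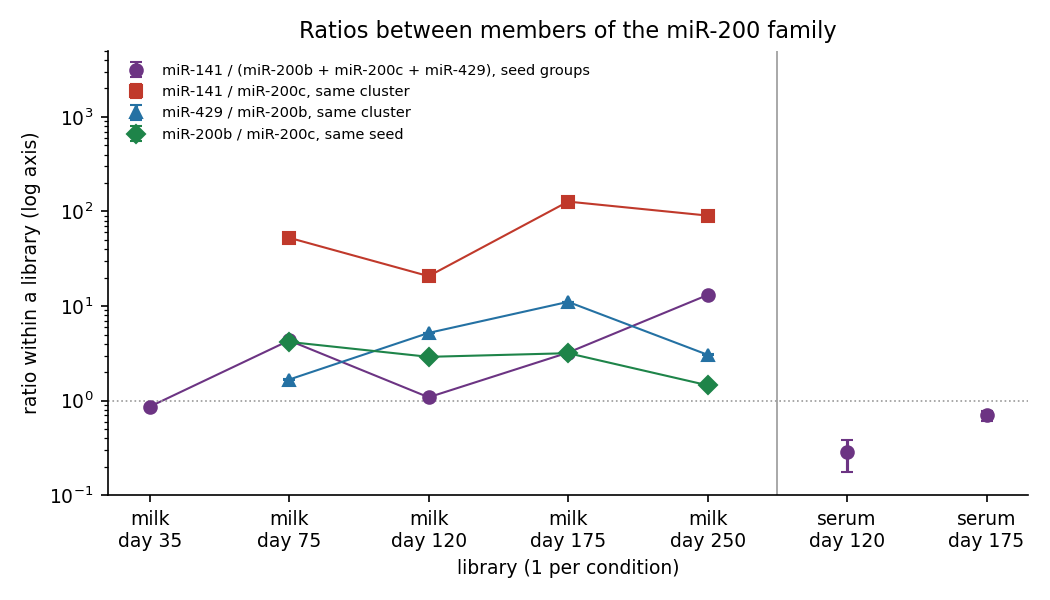
Ratios between members within each library (log axis) by milk day and in serum, with bars for the bounds that rounding allows and 1 library per condition; ratios with a member at 0 or absent are not drawn. The seed ratio goes from 0.864 at day 35 to 13.1 at day 250 in milk, while miR-200b over miR-200c stays between 1.46 and 4.18.

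Which miRNAs ran most like each member over the 5 milk days was described by the root mean square difference of log2 shares, each profile set to its own mean. Over all pairs of the 64 miRNAs the median difference was 1.67. MiR-200b and miR-200c were the closest pair of members, at 0.756, and miR-200b and miR-429, neighbours in a cluster, were the farthest, at 2.79. MiR-141 differed from miR-200c by 1.36, from miR-429 by 1.64 and from miR-200b by 1.95. Entries of 0 at day 35 weigh on these values. Over days 75 to 250 alone miR-200b and miR-200c were again the closest at 0.552, and miR-141 and miR-429 the farthest at 1.42.

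The profile nearest to miR-141 was that of miR-30a, at 0.430, followed by miR-27b at 0.436. MiR-30a took 1.095%, 3.46%, 3.36%, 13.7% and 14.95% of milk in order of day. The nearest to miR-429 was miR-10a, at 0.376, with 0.292%, 0.177%, 0.483%, 0.714% and 0.228%, and miR-10b followed at 0.519. These HOX cluster miRNAs were the reverse of miR-429 between fluids, with miR-10a at 7.20% and 10.6% of serum. MiR-128 was nearest to both miR-200b, at 0.867, and miR-200c, at 0.200, followed for each by miR-146a, at 1.12 and 0.847. Like miR-200b, both miR-128 and miR-146a were listed at 0 at day 35. Over days 75 to 250 alone, 1 of these pairings was kept, that of miR-429 with miR-10a.

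**Figure D4:**
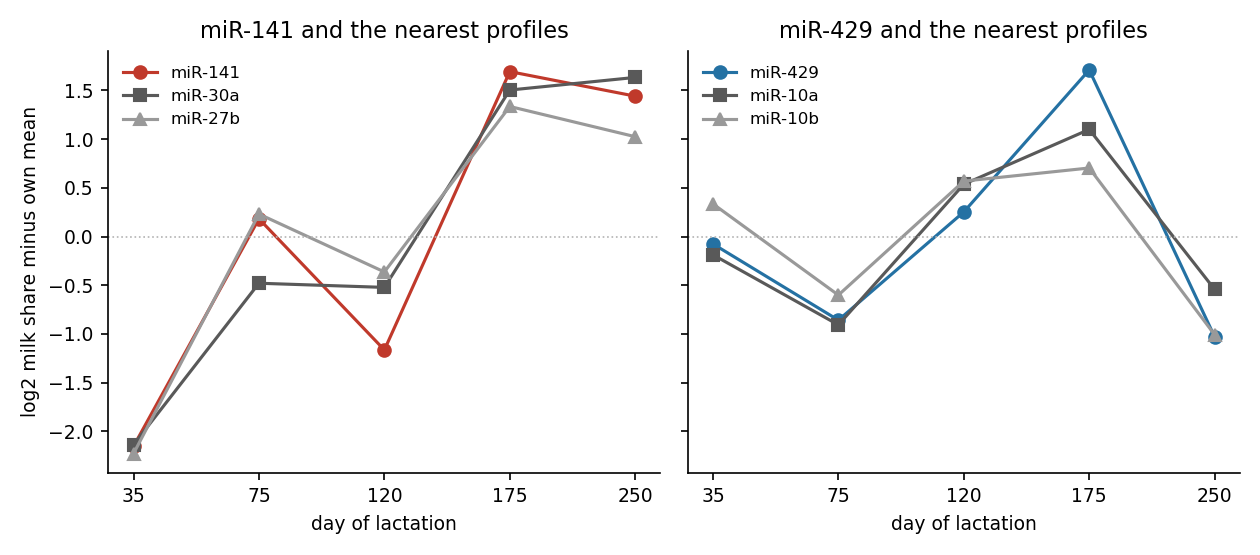
Log2 of the milk share plus 0.001, minus the mean of the same miRNA, by day of lactation for miR-141 with miR-30a and miR-27b (left) and for miR-429 with miR-10a and miR-10b (right), 1 library per day. The left profiles are low at day 35 and high at days 175 and 250, and those on the right peak at day 175 and are low again at day 250.

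Milk was compared with the serum of mothers on the days with both fluids. At day 120 the milk share of miR-141 was 342 times the serum share (273 to 456 within rounding), the second largest ratio of 53 miRNAs, of which 34% were at least 2-fold higher in milk. At day 175 it was 496 times the serum share (473 to 522), the largest ratio of 56 miRNAs, of which 55.4% were at least 2-fold higher in milk. MiR-429 was 71.4-fold higher at day 120 (66.6 to 77.0) and 98.2-fold higher at day 175 (94.8 to 102), the fourth largest ratio on both days. The median miRNA was at 0.953 of its serum share in milk at day 120 and 3.39-fold higher at day 175.

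For miR-200b and miR-200c no ratio can be formed, as both are listed at 0 in serum. Of the 46 miRNAs with at least 0.005% in milk on both days, 2 were at 0 or absent in both serum libraries, or 4.35%, and these 2 were miR-200b and miR-200c. For the family sum the milk share was about 146 times the serum share at day 120 and about 271 times at day 175. The serum sums take miR-200b and miR-200c as 0 and carry the rounding of each member, so both ratios are approximate. Without the abundant miR-10b and miR-191 in the denominators, the log2 ratios of the family sum went from 7.19 to 6.12 at day 120 and from 8.08 to 6.56 at day 175. For miR-141 the log2 ratio of 8.42 at day 120 became 7.34 on this scale and 6.84 relative to all analysed reads, and that of 8.95 at day 175 became 7.43 and 8.31. For miR-429 the ratio of 6.16 at day 120 became 5.09 and 4.58, and that of 6.62 at day 175 became 5.09 and 5.98.

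**Figure D5:**
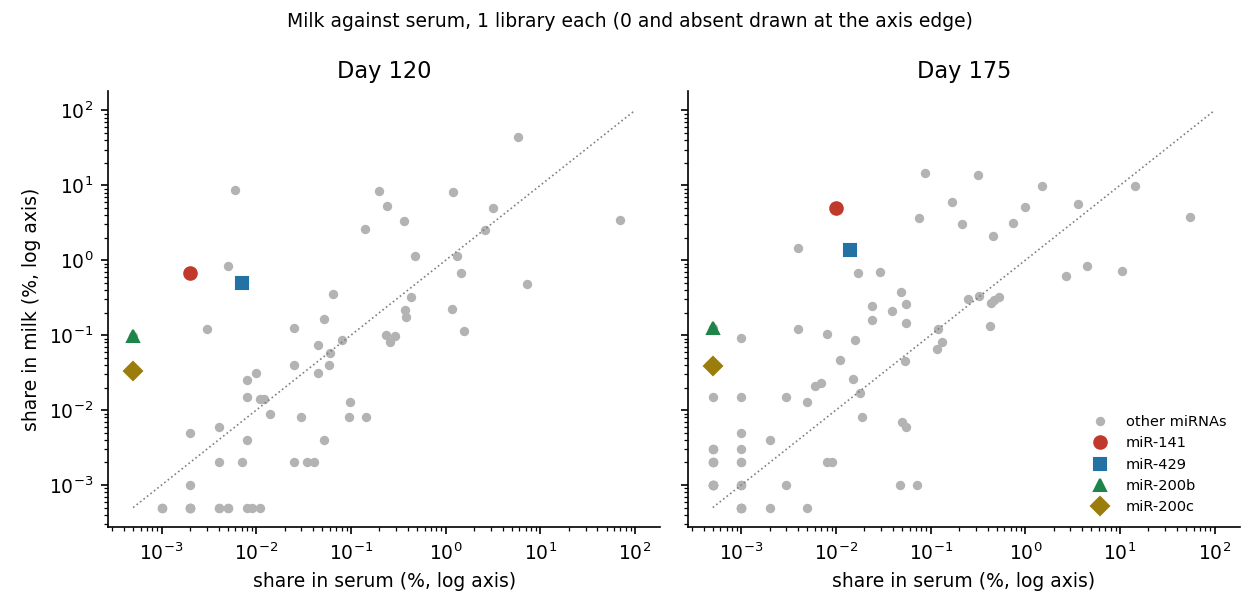
Share in milk against share in serum (percent, log axes) of each miRNA at day 120 (left) and day 175 (right), 1 library each; the dotted line marks equal shares, and entries at 0 or absent are drawn at the edge. All 4 members lie far above the line, with miR-141 342-fold and 496-fold higher in milk, and miR-200b and miR-200c at the serum edge.

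In the 4 libraries of days 120 and 175, limma on log2 of share plus 0.001 was fitted over 75 miRNAs with the days in the place of replicates. Of these, 11 were called higher in milk at an adjusted p under 0.05, or 14.7%, and 3 higher in serum, or 4%. This balance depended on the scaling, with 12 higher in milk and 15 higher in serum on the centred log ratio, and 10 and 9 without miR-10b and miR-191 in the denominators. The log2 difference between milk and serum was 8.33 for miR-141 (standard error 1.24, limma adjusted p = 0.0069) and 6.24 for miR-429 (standard error 0.89, limma adjusted p = 0.0069). With 0.01 added to the shares in place of 0.001, these differences were 6.91 and 5.38. Without miR-10b and miR-191 in the denominators they were 7.28 and 5.05. With 1 library left out they lay between 6.90 and 9.75 for miR-141 and between 5.52 and 6.97 for miR-429. MiR-200b and miR-200c are among the 11 but passed the filter on low shares through milk alone, and with both serum values at 0 their serum level in the fit is the value added to 0, so no p is given for them. Serum came from females also used for milk collection, though from fewer than each milk pool. With the day as a replicate block for this reason, miR-141 and miR-429 each had a limma adjusted p of 0.079. In that fit 0 miRNAs were called, with 20 at an unadjusted p under 0.05. With any 1 of the 4 libraries left out, 1 library stands against 2 and is assumed to vary like the other fluid, and in designs this small 0 miRNAs were called, with limma adjusted p between 0.072 and 0.14 for miR-141 and miR-429.

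All 7 libraries were compared by an exact permutation test over the 21 ways of choosing 2 of them. The days of a fluid stood in the place of replicates, and the match of serum with milk of the same day was not used. All 5 milk shares lay above both serum shares for miR-141 and miR-429, as they did for 20.3% of 69 miRNAs. The mean log2 difference was 8.06 for miR-141 and 5.26 for miR-429 (exact permutation test, two-sided p = 0.048 for each, the smallest that 21 splits allow, adjusted p = 0.16 over 69 miRNAs). Of the 69, 12 or 17.4% had an exact p of at most 0.05 with milk higher, and 0 had an adjusted p under 0.05. MiR-200b and miR-200c overlapped with serum at day 35 alone, and no p is given for them here either, as their serum level is the value added to 0.

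Between the serum libraries miR-141 was 5-fold higher at day 175 than at day 120 (3.8 to 7 within rounding), and 17.5% of 57 miRNAs were at least 2-fold higher. MiR-429 was 2-fold higher (1.8 to 2.23), and less than 2-fold higher (log2 change 0.74) without miR-10b and miR-191 in the denominators. Both members were also higher in milk at day 175 than at day 120, by 7.25-fold and 2.75-fold. Serum markers of blood cells were higher at day 175 as well, with a sum of 0.306% against 0.164%, and their part in the serum values of the members was not tested.

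Of a list of 9 other miRNAs known from epithelia, 8 were listed and 5 reached 0.005% in a library. For miR-375, best known from the pancreatic islets, every milk share lay above both serum shares, at 2.41% to 25.78% against 1.20% and 1.49%. The other 4 overlapped between the fluids. MiR-203, a miRNA of stratified epithelia such as skin, took between 0.005% and 0.145% of milk and 0.045% and 0.055% of serum. MiR-182 took between 0.005% and 0.247% of milk and 0.060% and 0.024% of serum. Its cluster partner miR-183 reached at most 0.021% in milk and 0.012% in serum. MiR-205a reached 0.005% in milk at day 75 and took 0.003% of serum at day 175. MiR-96, miR-31 and miR-34a stayed at or below 0.003% everywhere, and miR-205 was not listed. The separation of milk from serum seen for miR-141 and miR-429 was shared by 1 of the 5 of this list, against 20.3% of all 69.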

How the data were processed

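Small RNA of 5 milk pools and 2 serum samples was sequenced on an Illumina HiSeq, 1 library per condition. The authors trimmed adaptors, matched reads to known miRNAs of miRBase 19 (miRanalyzer) and deposited each miRNA's percent of the annotated reads, rounded to 3 decimals. As these are not counts, limma on log2(percent + 0.001) was used as planned for that case. Absent entries were taken as 0. The members and lists were chosen with earlier results of these data known.

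Folds carry the bounds that rounding of 0.0005 either way allows, and 2-fold changes were counted. Milk and serum of days 120 and 175 were compared with limma 3.58.1 in R 4.3.3 over miRNAs with at least 0.001% in at least 2 libraries, with Benjamini-Hochberg adjustment, and all 7 libraries by exact permutation, for miRNAs of at least 0.005% in 1. Both scripts were tested on simulated data. The serum donors were also used for milk collection but were fewer than the females of each milk pool. A fit with the day as a replicate block was therefore also made. Between days 120 and 175 the log2 changes in milk and in serum correlated at -0.12 across 75 miRNAs. Python 3.11.15, numpy 2.4.6, pandas 2.3.3 and matplotlib 3.10.9 were used. For each member the 2 miRNAs with the nearest milk profile are named. Alternatives were other pseudocounts, filters and denominators, the centred log ratio (over 40 miRNAs in milk), percent of all analysed reads by the aligned shares the study gives, and each library left out. Scalings of the day 35 to 250 changes, of the members' milk and serum ratios, of the serum changes and of the highest day were added after seeing the data. Without replicates, values that changed by more than 1.5-fold count as moved. Positions in the wallaby genome and mature sequences of the other members are not used here.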

Additional observations from a re-analysis of the deposited data

How the results depend on the processing

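The count of 14 miRNAs called between fluids by limma became 27 on the centred log ratio (12 higher in milk, 15 in serum). It became 0 when days were fitted as a replicate block, which sets milk against serum of the same day. Leaving out a library sets 1 library against 2, the lone one being assumed to vary like the other fluid, so these fits say little on stability. The limma adjusted p of miR-141 and miR-429 was then between 0.072 and 0.14, with milk higher in each fit. The count of 14 miRNAs whose milk shares all lay above serum ranged from 14 to 18 over the alternatives. As percent of all analysed reads the log2 change of the family sum in milk became 2.49 from day 35 to day 75, -1.98 from day 75 to day 120, 3.16 from day 120 to day 175, 3.87 from day 35 to day 250 and, reversed from -0.54, 0.20 from day 175 to day 250. From day 120 to day 175 it was 1.62 without miR-191 in the denominator and 1.59 without miR-10b and miR-191, against 2.31. The family sum over that of serum (log2) was 6.12 at day 120 and 6.56 at day 175 without these 2 miRNAs, and 5.61 and 7.44 as percent of all analysed reads. A denominator moves every miRNA of a library alike, here by at most -1.27 (log2, day 75 to day 120, all analysed reads) between successive milk days. Some of the members' single log2 changes reversed, a few of them under more than 1 setting. As percent of all analysed reads they were miR-429 to day 75 (0.18) and to day 120 (-0.16) and miR-141 to day 250 (0.48), and miR-429 over days 35 to 250 (0.31), a comparison of scalings chosen after seeing the data. On the centred log ratio they were miR-200b (-0.51) and miR-200c (-0.64) to day 175, and miR-141 (0.83) and miR-200b (0.19) to day 250. Without miR-191 they were miR-200b (-0.32) and miR-200c (-0.44) to day 175. Rounding moved 1 seed ratio, that of serum at day 120, to 0.176 at its lower bound. The most similar miRNAs depended on the days used and, for 3 of the 4 members, on the pseudocount. At 0.01 miR-203 came first for miR-429, and miR-27b took the place of miR-146a for miR-200b and miR-200c.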
